A study of Mus musculus with 61 samples.

Results

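Salivary glands of untreated NOD mice were compared between week 16 and week 8 of age. The comparison used 8 of the 61 arrays of the series, 4 titled as untreated salivary samples of week 16 and 4 of week 8. Titles set which arrays were used, while the comparison itself was chosen with earlier results of these data known. NOD is an inbred mouse strain that develops autoimmune diabetes and an inflammation of the tear and saliva glands that resembles Sjögren's syndrome. The study asked how LTBR-Ig, a soluble lymphotoxin-beta receptor that blocks its ligands, changes these glands, and it profiled lacrimal glands (31 arrays) and salivary glands (30 arrays) of untreated mice and of mice given LTBR-Ig or the control antibody MOPC-21. None of the 8 arrays described here came from a treated mouse, and both ages shared the strain and the array type. The study's methods describe male mice, and all 8 arrays had Xist at background (2.79 to 2.86) and the Y-linked Eif2s3y between 8.12 and 8.36. They also state that the submandibular, parotid and other salivary glands were frozen together after the cervical lymph nodes had been dissected away, so each array reads a mixture of glands. The titles number the arrays 1 to 4 within a week but tie no number to a mouse. P-values here therefore measure a spread between samples. That spread was pooled over the groups of all 30 salivary arrays, treated mice included, or of all 61 arrays where glands were compared.

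The mouse submandibular gland goes on maturing after puberty. Its granular convoluted ducts, which are larger in males and respond to androgen, make kallikreins and growth factors, and the acini and ducts are wrapped by contractile myoepithelial cells. In the NOD strain, inflammation of the salivary glands is mainly a trait of females and that of the lacrimal glands a trait of males. Plasma cells of the salivary glands supply the IgA of saliva.

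Values are log2 expression after GCRMA, a background correction and normalization for Affymetrix arrays. For each gene the brightest probe set, by its mean over the 8 arrays, was read, and 9793 genes lay above a log2 level of 4 in at least 2 of them. A call required a change of at least 2-fold and a limma adjusted p under 0.05. By this rule 726 of the 9793 genes (7.41%) were called, of which 392 (4%) rose and 334 (3.41%) fell from week 8 to week 16. These shares are the background for each list count of this comparison below. Changes of 4-fold or more were found for 86 genes that rose and 54 that fell. The median change over all genes was -0.07 on the log2 scale, and 38.5% of genes had no overlap between the arrays of the 2 ages. Levels under 4 lie near the array background, so a fold that rests on them is less certain than its p-value. In whole-gland RNA, fewer cells of a type and less RNA per cell cannot be told apart.

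All 8 arrays carried the products of the labelled tissue at high levels. Pip, prolactin-induced protein of saliva, lay between 14.87 and 15.25, and Prol1, a salivary mucin, between 15.65 and 15.81. Of 39 probe sets that were at least 5 log2 units higher in untreated lacrimal than in untreated salivary glands at other ages, the mean level was 7.03 in week 8 replicate 1, between 3.92 and 4.10 in the other week 8 arrays and between 3.39 and 3.76 at week 16. Replicate 1 of week 8 also had the highest B cell marker mean, 3.61 against 2.65 to 2.83 in the other 7 arrays. In week 16 replicate 4 the mean of 6 parotid products was 11.8, while the other 7 arrays lay between 5.33 and 7.05. Values below are given also without these arrays where a list's count of calls changed. The 4 week 8 arrays stood apart from every other salivary array along the first principal component (58.7 to 79.2 against at most 32.2). The sources used here give neither the hour of collection nor the day of array processing, and age cannot be told apart from either.

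**Figure D1:**
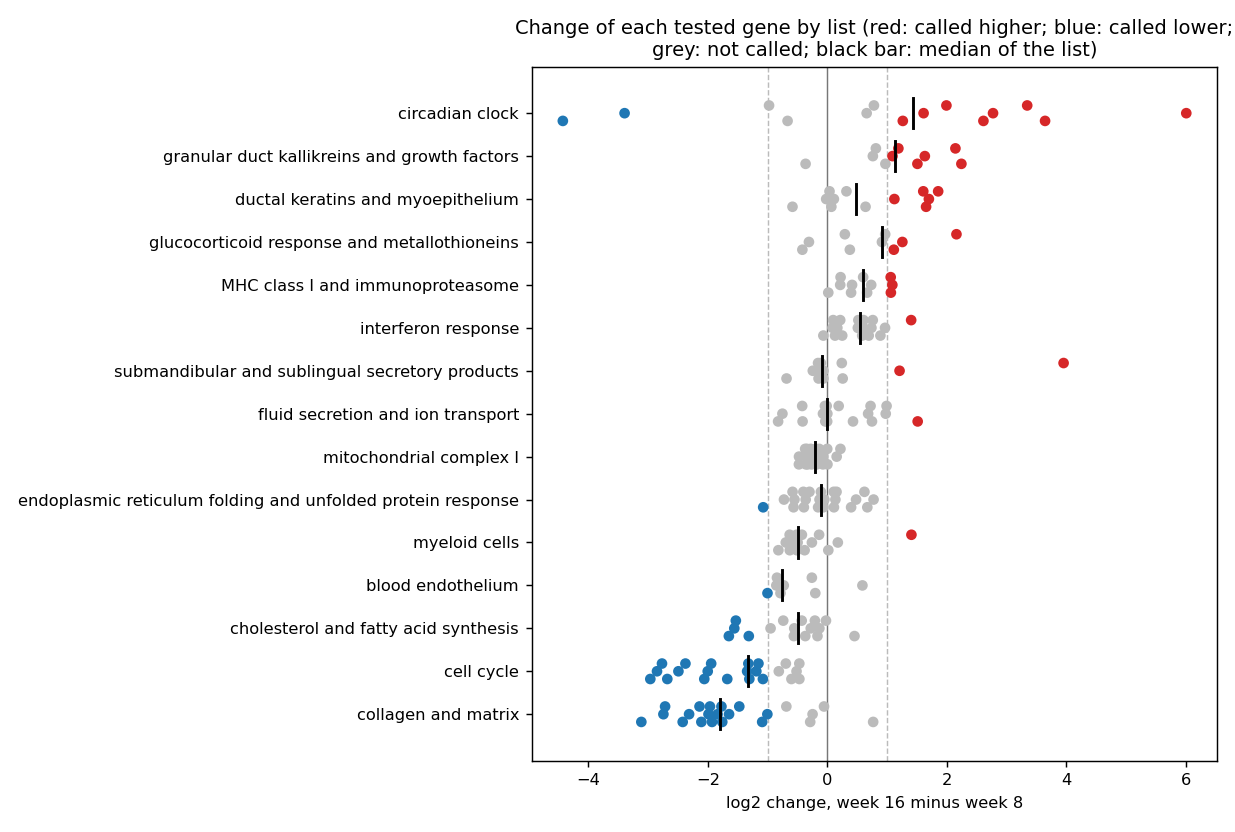
Log2 change from week 8 to week 16 (x axis) of every tested gene in 15 gene lists (y axis). Each dot is a gene, red if called higher, blue if called lower and grey if not called, the black bar is the list's median and dashed lines mark a 2-fold change. Cell cycle and matrix genes lie mostly to the left, clock and granular duct genes mostly to the right.

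Genes of the circadian clock changed in both directions, and several by more than 8-fold. The clock is a loop in which the activators Clock, Arntl (Bmal1) and Npas2 bind E-boxes and turn on Per, Cry, Nr1d and Dbp genes, whose products in turn repress the activators, act on D-boxes or repress through ROR elements. Of 14 tested clock genes, 8 rose and 2 fell (4% and 3.41% of all genes), and the median change was 1.44. There was no overlap between ages for 13 of the 14, as for 38.5% of all genes. Without week 8 replicate 1, 8 rose and 3 fell.

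Dbp, a D-box activator of clock output, read 5.17, 3.78, 4.49 and 4.60 in the week 8 arrays and 10.46, 10.54, 10.61 and 10.47 in the week 16 arrays. Every week 16 array was more than 5 log2 units above every week 8 array. The rise was 6.01 ± 0.20 on the log2 scale (4 against 4 arrays, 64.5-fold, limma adjusted p = 3.35e-18). Here and below ± is the SE of the limma fit with its pooled spread, and not the scatter of the arrays printed. Tef, a relative of Dbp, went from 6.44, 6.01, 7.04 and 5.60 to 9.53, 9.54, 9.68 and 9.73, a rise of 3.35 ± 0.19 (adjusted p = 2.63e-13). Per3, a period gene, went from 3.47, 4.13, 4.49 and 3.28 to 7.20, 7.63, 7.42 and 7.70, which is 3.65 ± 0.25 higher (adjusted p = 6.83e-12). In both genes the ages were separated by more than 2 log2 units.

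The repressors also rose. Nr1d2 (REV-ERB beta) lay between 8.95 and 9.60 at week 8 and between 11.92 and 12.10 at week 16, a difference of 2.77 ± 0.10. Its partner Nr1d1 moved from 3.34 to 3.95 up to 6.26 to 6.36, or 2.61 ± 0.28, and Bhlhe40, a repressor of E-box genes, rose by 1.99 ± 0.15. Per2 rose by 1.61 ± 0.33. Ciart, a repressor of the Clock and Arntl pair, rose by 1.26 ± 0.23, with a week 16 mean that was barely above the floor of 4.

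The activators went the other way. Arntl read 6.83, 6.81, 7.63 and 7.57 at week 8 and 2.78, 2.82, 2.76 and 2.76 at week 16, so the older arrays lay at background in all 4 cases. It fell by 4.43 ± 0.14 on the log2 scale (21.5-fold, adjusted p = 2.38e-18). Npas2, its other partner besides Clock, read 5.72, 6.29, 6.56 and 5.86 and then 2.71, 2.73, 2.70 and 2.71, a change of -3.40 ± 0.18. Nfil3, a repressor that competes with Dbp for D-boxes and was named among the largest falls and not through the list, went from between 8.92 and 9.22 to between 5.29 and 5.74, a change of -3.53 ± 0.39 (adjusted p = 6.68e-08). Clock (-0.67), Cry1 (-0.98), Cry2 (0.78) and Per1 (0.66) did not pass the fold of 2. Of these 4, only Per1 overlapped between the ages. A further Clock probe set was called lower (-1.02).

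**Figure D2:**
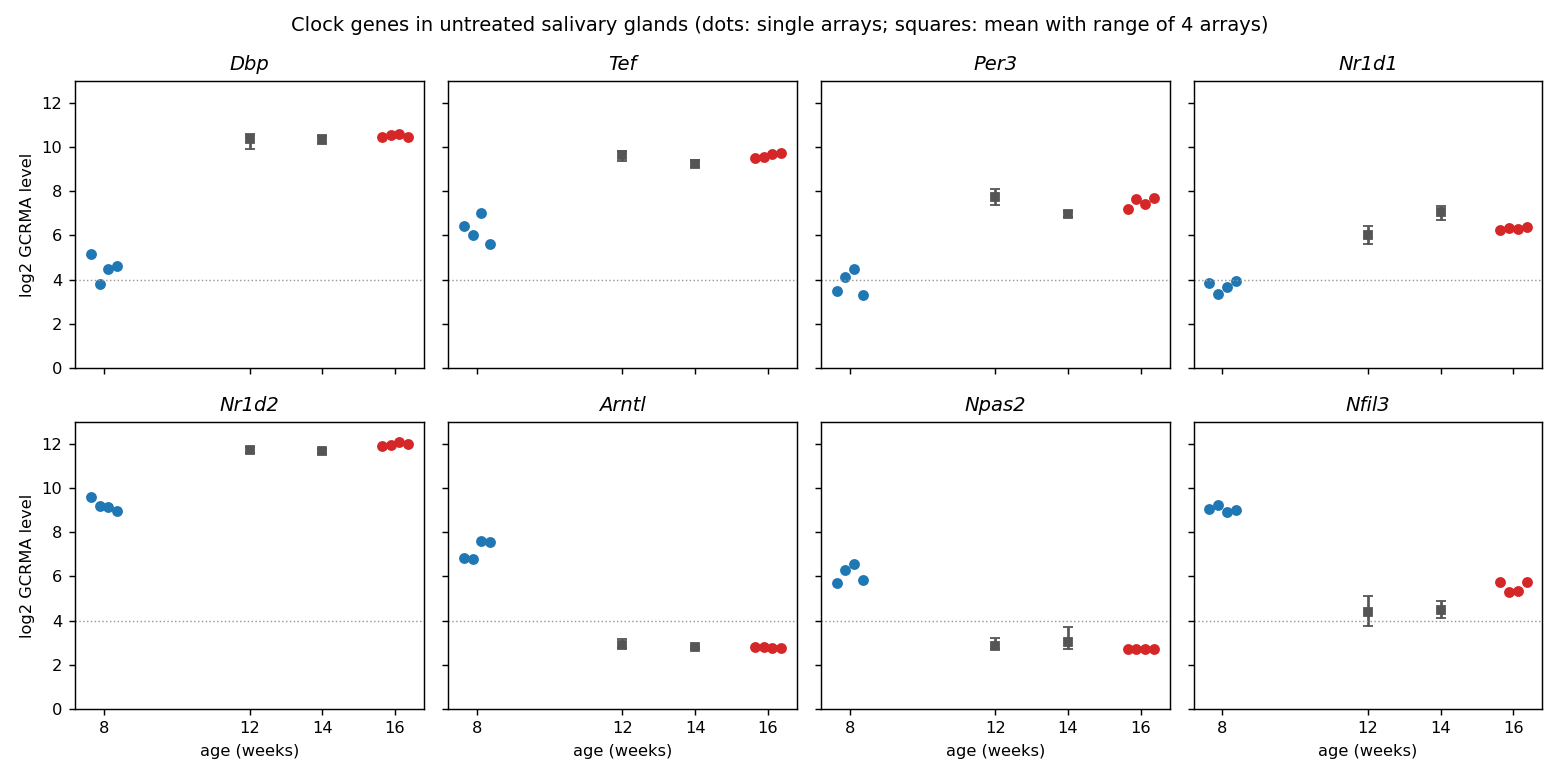
Log2 level (y axis) of 8 clock genes at weeks 8, 12, 14 and 16 of age (x axis) in untreated salivary glands. Dots are single arrays at weeks 8 and 16, squares with bars are the mean and range of the 4 arrays at weeks 12 and 14, and the dotted line is the floor of 4. Weeks 12, 14 and 16 lie together, apart from week 8.

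Promoters of these genes were searched for the elements named above, on both strands, in RefSeq windows (GRCm38.p6) that run from 250 bases before to 50 bases after each start. Of 18 genes looked up, 15 had a window. The E-box CACGTG was found in 7.15% of all 32851 windows, the D-box (TTATGTAA or TTACGTAA) in 1.06% and the ROR element TAGGTCA in 2.61%. Windows of Dbp, Nr1d1, Nr1d2, Npas2, Clock and Cry2 held none of these letters, while Per1, Cry1 and Bhlhe41 each held 1 E-box. A match is a description and no binding was measured. For 4 genes that rose or fell and held a match, the window is printed 5′ to 3′ from base -250 to base -1, with the matched letters in capitals. Ciart (chr3:95882229-95882478, minus strand) has E-boxes that begin at -116, -58 and -44, and Tef (chr15:81802423-81802672, plus strand) has 1 at -127. Per3 (chr4:151044666-151044915, minus strand) has D-boxes at -205 and -158. Nfil3 (chr13:52981040-52981289, minus strand) has the ROR element on the opposite strand, read as TGACCTA, at -12, and for Arntl the 30 bases around its match are shown, from 20 to 49 bases after the start of one of its windows (chr7:113207530-113207559, plus strand).
Ciart: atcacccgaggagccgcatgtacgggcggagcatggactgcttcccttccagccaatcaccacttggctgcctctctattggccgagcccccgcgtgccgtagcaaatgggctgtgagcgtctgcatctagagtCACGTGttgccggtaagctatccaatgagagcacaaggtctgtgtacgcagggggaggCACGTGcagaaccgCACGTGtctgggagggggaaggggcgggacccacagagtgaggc
Tef: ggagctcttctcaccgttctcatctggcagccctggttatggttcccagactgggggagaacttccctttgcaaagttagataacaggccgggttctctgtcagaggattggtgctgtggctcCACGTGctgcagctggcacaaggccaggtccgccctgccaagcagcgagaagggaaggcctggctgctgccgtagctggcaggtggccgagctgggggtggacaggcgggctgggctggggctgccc
Per3: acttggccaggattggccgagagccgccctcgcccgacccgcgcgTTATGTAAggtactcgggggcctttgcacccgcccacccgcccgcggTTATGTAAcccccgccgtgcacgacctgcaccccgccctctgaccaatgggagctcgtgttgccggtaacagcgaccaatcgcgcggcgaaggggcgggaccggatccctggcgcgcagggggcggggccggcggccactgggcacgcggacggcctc
Nfil3: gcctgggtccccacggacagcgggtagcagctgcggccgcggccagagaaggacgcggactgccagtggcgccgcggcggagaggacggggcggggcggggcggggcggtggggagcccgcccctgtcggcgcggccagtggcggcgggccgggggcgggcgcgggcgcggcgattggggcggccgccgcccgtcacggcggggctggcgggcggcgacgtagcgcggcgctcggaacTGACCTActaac
Arntl: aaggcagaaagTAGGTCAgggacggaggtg

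At the intermediate ages most clock genes lay close to their week 16 levels. Dbp averaged 10.38 at week 12 and 10.38 at week 14, and Arntl averaged 2.89 and 2.78. Against the same week 8 arrays, 8 clock genes rose and 3 fell at week 12 (3.5% and 3.7% of all probe sets), and 7 rose and 3 fell at week 14 (4.41% and 2.9%). These contrasts share the week 8 arrays and are not independent of the one above.

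Genes of the extracellular matrix fell. Of 22 tested genes for collagens and other matrix proteins, 17 fell and none rose (3.41% and 4% of all genes), with a median change of -1.81. Neither the count nor its direction changed without week 8 replicate 1 or without both arrays named above. Col3a1, the collagen of soft connective tissue, read 13.13, 13.48, 13.76 and 13.68 at week 8 and 10.81, 10.82, 10.86 and 10.69 at week 16, with no overlap. It fell by 2.72 ± 0.15 on the log2 scale (6.57-fold, adjusted p = 1.52e-13). Col1a1, a chain of the main fibrous collagen, went from 9.51, 9.93, 10.10 and 9.90 to 7.09, 7.10, 6.99 and 7.28 (-2.75 ± 0.15, adjusted p = 1.58e-13).

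Elastin (Eln) fell to background. It read 6.12, 6.34, 5.43 and 6.02 at week 8 and 2.61, 3.04, 3.03 and 2.77 at week 16, a change of -3.11 ± 0.16 (8.66-fold, adjusted p = 1.73e-14). Outside the list, Col5a3 (-3.29 ± 0.14) and the matrix protease gene Adamts12 (-3.59 ± 0.26) were among the 15 largest falls. Lox, which cross-links collagen and elastin, changed by -1.93, Sparc, a collagen-binding protein, by -1.99 and Mmp2, a gelatinase, by -1.65. The basement membrane chains Col4a1 (-2.14) and Col4a2 (-1.84) fell as well. Fn1 (fibronectin) fell by 1.0 on the log2 scale and was no longer called when replicate 3 of either week was left out.

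The 5 matrix genes without a call were the proteoglycans Dcn (-0.06), Lum (-0.25) and Bgn (-0.29), the matricellular gene Postn (0.77) and Col18a1 (-0.69). Dcn lay between 11.36 and 12.13 at week 8 and between 11.45 and 11.65 at week 16, so its ranges overlapped where those of the fibrous collagens did not.

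Cell cycle genes fell to low levels. Of 22 tested, 16 fell and none rose (3.41% and 4% of all genes), with a median of -1.33, and 17 had no overlap between ages, as had 38.5% of all genes. Mki67, a marker of dividing cells, read 8.36, 8.07, 6.82 and 7.14 at week 8 and 5.0, 5.03, 4.46 and 4.82 at week 16. The week 8 arrays spread over more than 1 log2 unit, with replicates 1 and 2 highest, and all 4 lay above week 16. The change was -2.77 ± 0.31 (6.82-fold, adjusted p = 6.15e-08).

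Ube2c, an enzyme that triggers mitotic exit, had the largest fall of the list. Its levels were 6.57, 6.16, 5.49 and 5.35 and then 3.23, 2.73, 2.64 and 3.11, a change of -2.96 ± 0.24 (adjusted p = 1.67e-10). Top2a, the topoisomerase that untangles chromosomes, changed by -2.85 ± 0.23 and Rrm2, which supplies deoxynucleotides, by -2.68 ± 0.27. The replication helicase genes Mcm5 (-2.38), Mcm6 (-1.95) and Mcm7 (-1.68) fell too. Without week 8 replicate 1, which had the highest Mki67 level, 14 genes fell, and 13 did without both arrays. Ccna2 and Mcm4 were no longer called without week 8 replicate 1, and Ccnd1, a cyclin of early cycle entry, without week 8 replicate 4. Pcna, the replication clamp, remained at 9.34 or more in all 8 arrays and its change of -0.47 was not called.

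Kallikreins of the granular ducts rose. Of the 19 genes in the list 10 had a probe set of their own, and of these 6 rose and none fell (4% and 3.41% of all genes). The median was 1.14, and none of the 10 overlapped between ages, as was true of 38.5% of all genes. Klk1b24, a member of this protease family, read 12.95, 12.30, 12.74 and 11.95 at week 8 and 14.71, 14.66, 14.80 and 14.74 at week 16. The week 16 arrays differed from each other by less than 0.2 and the week 8 arrays by 1 log2 unit. The rise was 2.24 ± 0.12 (4.74-fold, adjusted p = 8.28e-14). Klk1b1 rose by 2.14 ± 0.12, Klk1b5 by 1.63 ± 0.07, Klk1b27 by 1.51 and Klk1b21 by 1.19, and Klk1b8 rose by 1.09 but lost the call without week 8 replicate 4.

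Klk1, the true tissue kallikrein, ran slightly the other way. It read 15.88, 15.88, 15.95 and 16.03 at week 8 and 15.54, 15.62, 15.54 and 15.59 at week 16 (-0.36 ± 0.05, not called), near the top of the measured range. Egf, the epidermal growth factor that these ducts store, changed by 0.81 and Klk1b16 by 0.97, both below the fold of 2. Genes of the Klk1b family are nearly identical in sequence, so a probe set can read several of them and the values of single members are uncertain. The count of 6 became 7 without week 8 replicate 1.

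Other secretory products were mostly level. Of 13 tested products of submandibular and sublingual glands, 2 rose and none fell (4% and 3.41% of all genes), and the median change was -0.07. Smr2, a small secreted protein of the submandibular gland, read 9.69, 9.35, 12.03 and 8.48 at week 8 and 13.78, 14.17, 13.87 and 13.55 at week 16. Week 8 replicate 3 was the highest of its group but still below every older array. The rise was 3.96 ± 0.43 (15.5-fold, adjusted p = 5.13e-08) and reached 4.67 without that replicate. Gp2, a secretory granule protein, was called at 1.21 ± 0.46 (adjusted p = 0.0437), with overlapping arrays and no call when any of 6 of the 8 arrays was left out, including both of those named above, which left 1 of the 13 products called.

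Mup5, a major urinary protein that carries pheromones, fell. Its levels were 13.73, 14.08, 14.39 and 14.40 at week 8 and 10.79, 10.18, 10.80 and 10.17 at week 16, a change of -3.67 ± 0.52 (12.7-fold, adjusted p = 3.1e-06). Among 19 tested genes for fluid secretion and ion transport, only Cftr, the chloride channel, was called, where 7.41% of all genes were. Cftr went from 7.63, 7.13, 7.81 and 8.10 to 8.94, 9.17, 9.43 and 9.17 (1.51 ± 0.14, adjusted p = 4.7e-09). Without week 16 replicate 4, 2 of the 19 were called. The sodium channel subunits Scnn1b (0.98) and Scnn1g (0.99) fell just short of the fold of 2. Aqp5, the water channel of acinar cells, averaged 11.17 at week 8 and 10.42 at week 16, without overlap (-0.75 ± 0.14, not called). Of 10 exocrine transcription factors, Elf5 alone was called, at -1.14 ± 0.10.

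**Figure D3:**
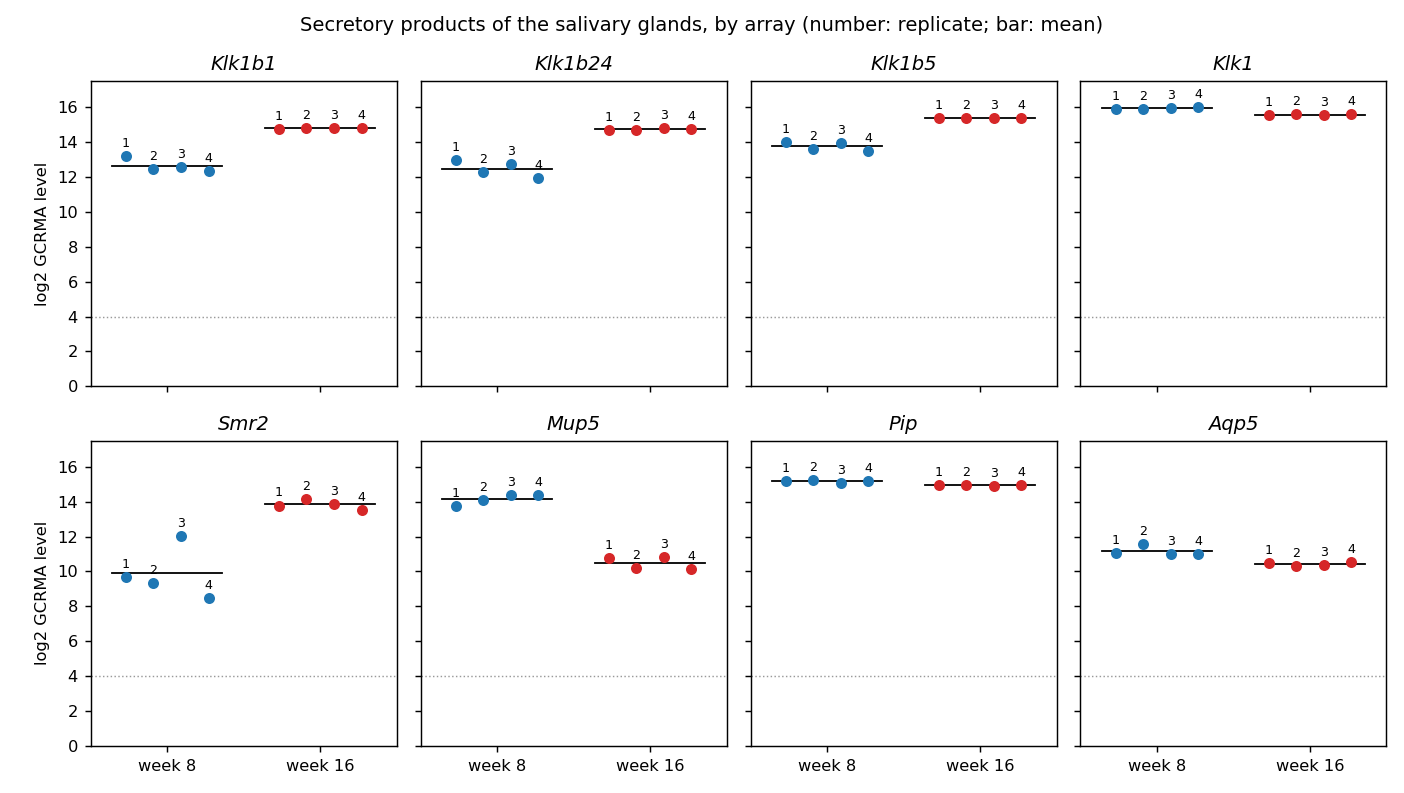
Log2 level (y axis) of 8 secretory genes at week 8 and week 16 (x axis). Each point is an array with its replicate number, the bar is the mean of 4 arrays and the dotted line is the floor of 4. The Klk1b genes and Smr2 are higher at week 16, Mup5 is lower, and Klk1, Pip and Aqp5 differ by less than 1 log2 unit.

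In the list of ductal keratins and myoepithelium, 5 of 12 tested genes rose and none fell (4% and 3.41% of all genes), with a median of 0.48. The 5 encode smooth muscle proteins, a feature seen after their values were known. Tagln (transgelin) went from 8.49, 8.66, 8.78 and 8.49 to 10.34, 10.31, 10.57 and 10.62, a rise of 1.86 ± 0.15 (3.62-fold, adjusted p = 2.41e-10). Myh11, smooth muscle myosin, rose by 1.70 ± 0.11, Cnn1 (calponin) by 1.65 ± 0.27, Mylk, which activates myosin, by 1.61 ± 0.11 and Acta2, smooth muscle actin, by 1.12 ± 0.09. The basal keratins that myoepithelial cells also make, Krt5 (0.04) and Krt14 (0.64), were not called, and vascular smooth muscle carries the same 5 proteins.

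Immunoglobulin transcripts were among the largest rises. Igha, the constant chain of IgA, read 11.67, 4.89, 5.10 and 3.68 at week 8 and 13.40, 13.82, 13.69 and 13.41 at week 16. Replicate 1 of week 8 stood more than 6 log2 units above the other 3, and all 4 lay below week 16. The rise was 7.24 ± 0.90 (151-fold, adjusted p = 4.74e-07), and without that replicate it was 9.02 (520-fold). Jchain, which joins IgA into dimers for secretion, read 8.13, 2.47, 3.37 and 3.56 and then 9.71, 10.46, 10.05 and 9.65. Its rise of 5.58 ± 0.68 (adjusted p = 3.29e-07) became 6.83 without week 8 replicate 1.

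The light chain probe sets rose by 6.79 for Igkv8-30, 3.82 for Igkv9-120 and 3.69 for Iglv1, although a further Iglv1 probe set gave 0.95. Without week 8 replicate 1 these rises were 8.45, 4.51 and 4.24. At week 12 Igha averaged 12.87 and Jchain 8.91, and at week 14 they averaged 12.76 and 9.0. Only 5 of 9 plasma cell genes were tested, and Jchain was the one called, with a further gene called without week 8 replicate 1. Mzb1, a chaperone of antibody assembly, read 4.61, 2.89, 2.61 and 2.89 and then 4.08, 4.85, 4.27 and 3.51 (0.93 ± 0.42, not called).

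B cell markers were near background. Of 19 B cell genes 2 were above the floor in at least 2 arrays, and neither Pou2af1 (0.45) nor Ebf1 (-0.32) was called. Cd79a, part of the B cell receptor, read 4.83, 2.81, 2.31 and 2.72 at week 8 and 2.28, 2.33, 2.32 and 3.16 at week 16, so its highest level was in week 8 replicate 1. Ms4a1 (CD20) also peaked there, at 5.32, and was at most 3.73 elsewhere. Of 17 T cell genes only Thy1 was tested, and it fell by 1.48 on the log2 scale. Thy1 is also made by fibroblasts and nerve. The other 16 were not above the floor in at least 2 arrays.

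Antigen presentation genes were called in part. Of 5 tested MHC class II genes 3 rose (4% of all genes), with a median of 1.01. None of the 5 was free of overlap, while 38.5% of all genes were. H2-Aa, a class II chain, read 9.14, 7.38, 7.58 and 7.17 at week 8 and 8.97, 8.92, 8.77 and 8.95 at week 16, and week 8 replicate 1 was the highest of all 8. Its change was 1.08 ± 0.29 (adjusted p = 0.00442), and 1.53 without that replicate, when 4 of the 5 genes were called, against 2 without week 16 replicate 4. H2-Aa and H2-Eb1 were not called without week 8 replicate 2 or 4, and H2-Ab1 (1.01) was not called when any of 6 arrays was left out. In the class I list 3 of 11 genes rose, against 4% of all genes. They were B2m (1.06), the light chain of class I, Psmb8 (1.06), an immunoproteasome subunit, and Nlrc5 (1.09), their transcriptional activator. Each lost its call when 1 or 2 of the 8 arrays were left out in turn, and 2 were called without week 16 replicate 4.

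Few other immune genes were called, where 4% of all genes rose and 3.41% fell. Oasl2 (1.40 ± 0.31) was the only one of 18 interferon response genes, against 5 without week 8 replicate 1 and 2 without both arrays. Of 15 myeloid genes, only Cd14, the co-receptor for endotoxin, rose, from 7.03, 6.72, 7.60 and 6.94 to 8.51, 8.42, 8.49 and 8.49 (1.41 ± 0.12, adjusted p = 1.19e-09). The macrophage marker Cd68 changed by -0.82 and was not called. Ccl5, a T cell chemokine, rose by 1.02 and lost the call without week 8 replicate 2 or 3 or week 16 replicate 1. Of 5 tested genes of high endothelial venules and lymphoid chemokines, Cxcl13 and the adhesion gene Icam1 fell, and Icam1 (-1.01) was not called without week 8 replicate 4 or week 16 replicate 2. Cxcl13, the chemokine that draws B cells, read 6.32, 4.25, 5.01 and 4.54 and then 4.04, 3.95, 3.45 and 3.54. Its fall of 1.28 on the log2 scale was not called without week 8 replicate 1 (-0.85). Glycam1, a ligand on high endothelial venules, lay between 2.91 and 3.12 and Pla2g2d, a phospholipase of lymphoid tissue, between 2.55 and 2.62 in all 8 arrays, under the floor.

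Some transcripts that are abundant in other glands were high in single arrays and also differed between the ages without them. Scgb1b2, an androgen-binding secretoglobin, read 15.38, 9.45, 7.55 and 8.41 at week 8 and 2.69, 2.70, 2.85 and 2.68 at week 16. The call of -7.46 ± 1.18 (177-fold, adjusted p = 1.66e-05) became -5.74 (53.3-fold) without week 8 replicate 1, and all 3 remaining arrays still lay above week 16. At week 12 the gene was between 2.68 and 2.70 and at week 14 between 7.07 and 9.46, so its level was not ordered by age. Obp1a, an odorant-binding protein, went from 13.34, 7.76, 6.81 and 6.17 to 2.76, 3.10, 2.70 and 2.94 (-5.64, and -4.04 without that replicate). Both genes lay above 15 in lacrimal glands at both ages.

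Lcn11, a lipocalin with a level above 15 in lacrimal glands, read 13.34 in week 8 replicate 1 and between 2.37 and 3.54 in the other 7 arrays. The part of other gland tissue in these changes was not tested. Amy1, the amylase of parotid saliva, read 5.56, 4.58, 5.48 and 5.45 at week 8 and 7.36, 7.50, 7.75 and 14.19 at week 16. It was called at 3.93 ± 1.05 (adjusted p = 0.00447) and at 2.27 (adjusted p = 0.0224) without week 16 replicate 4. Bpifa2, a parotid secretory protein, read 2.24, 2.23, 5.43 and 3.59 and then 3.22, 4.49, 3.04 and 14.02, which was not called (2.82), and it differed by 0.21 without week 16 replicate 4. That array also had Adipoq, the adipocyte hormone, at 7.10, against at most 3.38 elsewhere.

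**Figure D4:**
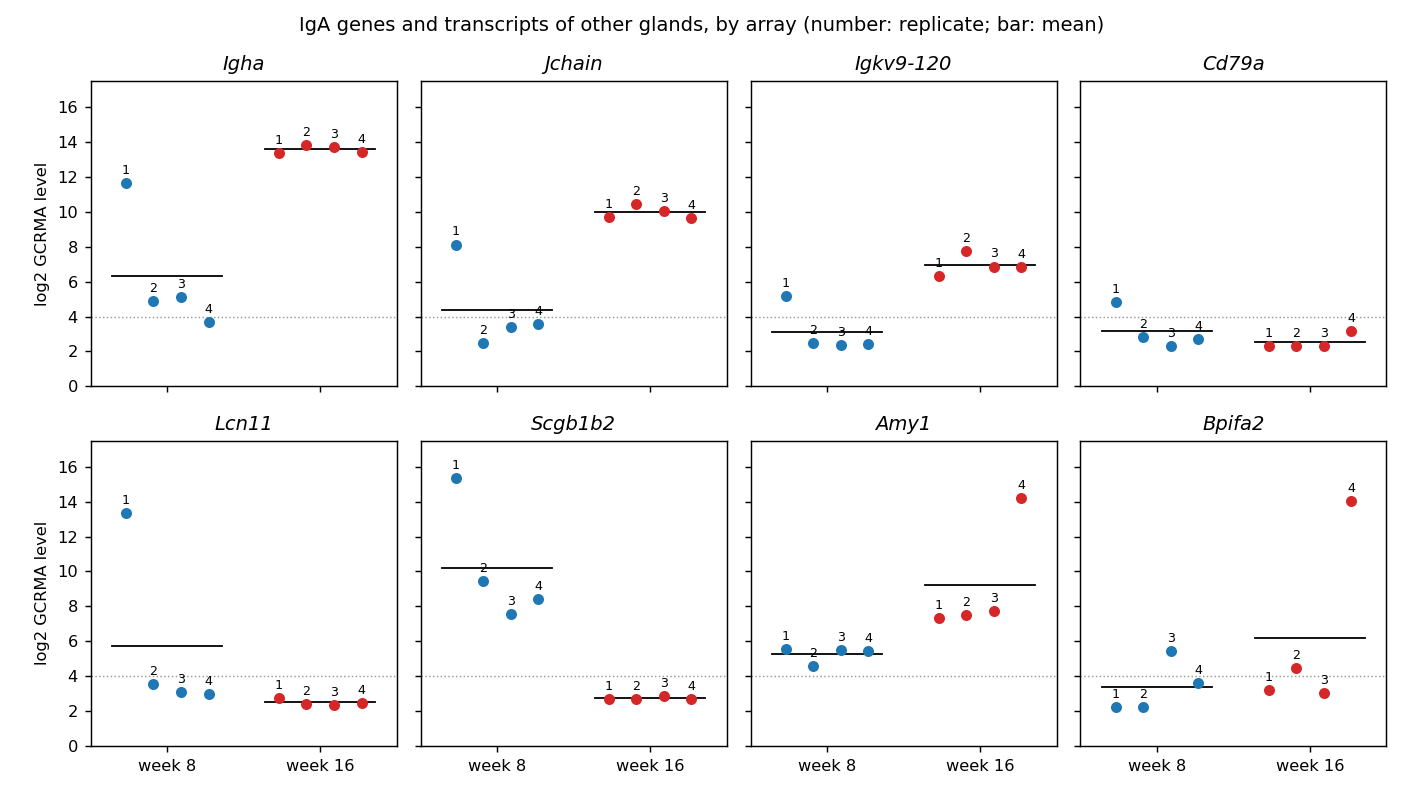
Log2 level (y axis) of 8 genes at week 8 and week 16 (x axis), with each array marked by its replicate number, the mean of 4 arrays as a bar and the floor of 4 as a dotted line. Igha, Jchain and Igkv9-120 are high in all week 16 arrays, Cd79a, Lcn11 and Scgb1b2 are highest in week 8 replicate 1, and Amy1 and Bpifa2 are highest in week 16 replicate 4.

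Several further genes rose from low levels. Upp2, a uridine phosphorylase, read 4.01, 3.98, 3.66 and 3.53 at week 8 and 8.24, 7.68, 8.68 and 9.06 at week 16 (4.62 ± 0.34, 24.6-fold). Arc, an activity-regulated gene best known from neurons, went from 2.65, 2.62, 2.43 and 2.61 to 6.25, 6.44, 6.94 and 7.05 (4.09 ± 0.19, adjusted p = 6.88e-15). Cyp2b10, a xenobiotic-metabolizing cytochrome, went from 5.81, 4.34, 4.42 and 4.08 to 8.69, 8.40, 8.80 and 8.75 (4.0 ± 0.23). None of these 3 genes overlapped between ages. Capn3, a calcium-dependent protease, rose by 4.04, with a second probe set at 1.66. Snhg11, a noncoding host gene, rose by 3.93, with a second probe set at 1.12, and Pcp4l1 rose by 3.86. Sult1e1, which sulfates estrogen, rose by 3.16 ± 0.24 and Acsm1, a fatty acid-CoA ligase, by 2.48 ± 0.21.

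Among the 15 largest falls were also Igf1, Peg3, Agt, Sphk1 and Lpl. Igf1, insulin-like growth factor 1, read 7.83, 7.67, 7.28 and 8.18 at week 8 and 4.37, 4.53, 5.06 and 4.92 at week 16, without overlap (-3.02 ± 0.21, adjusted p = 7.28e-12). Its 3 other probe sets gave -1.56, -2.69 and -0.92. Peg3, an imprinted gene, went from 5.93, 6.32, 7.04 and 6.43 to 2.64, 2.65, 3.40 and 2.57 (-3.61 ± 0.18). Agt, the angiotensin precursor, changed by -3.05 ± 0.36, Sphk1, which makes sphingosine 1-phosphate, by -3.52 ± 0.29, and Lpl, lipoprotein lipase, by -2.85 ± 0.19. The adipocyte gene Fabp4 read 9.68, 10.08, 8.89 and 9.84 and then 7.63, 7.91, 7.98 and 9.85, a change of -1.28 that became -1.78 without week 16 replicate 4.

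Among metabolic and stress lists, 4 of 16 genes for cholesterol and fatty acid synthesis fell (3.41% of all genes), with a median of -0.49. All 4 act in sterol synthesis: Sqle (-1.65), Cyp51 (-1.56), Idi1 (-1.53) and Fdps (-1.32), and 5 genes fell without week 16 replicate 4. Of 9 genes that respond to glucocorticoid or metal, 3 rose (4 without both arrays), against 4% of all genes, with a median of 0.91. Sgk1, a kinase that raises sodium channel activity, went from 10.77, 10.05, 10.28 and 10.11 to 12.73, 12.87, 12.37 and 11.90 (2.16 ± 0.20, adjusted p = 3.52e-09), Mt2 (a metallothionein) rose by 1.26 and Fkbp5, a chaperone of the glucocorticoid receptor, by 1.11. The immediate early gene Fos fell by 1.70 on the log2 scale and the heat shock gene Hsph1 by 1.41, while Ier3 rose by 1.08 but not without week 8 replicate 3 or 4, while 2 genes of this list rose when one or both of the arrays named above were left out. None of 21 complex I genes was called (median -0.21, limma), and of 23 genes for protein folding in the endoplasmic reticulum only Syvn1 was (-1.07), with no call when week 16 replicate 1 was left out. Of 8 tested genes of blood endothelium, Esam alone was called (-1.0), and not without week 16 replicate 4 or week 8 replicate 2 or 4, while 2 genes were called without both arrays. No gene was called among 8 of complement and acute phase (1 higher and 1 lower without week 8 replicate 1, 1 lower without week 16 replicate 4 or both), 2 of lymphatic endothelium, 2 of blood cells and 1 of nerve. None of 13 skeletal muscle genes was above the floor in at least 2 arrays.

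Lacrimal glands of untreated mice at the same ages, 4 arrays each, served to test which changes differed between the glands. Over both glands 10483 genes were tested, and the change differed for 2126 of them (20.3%) by at least 2-fold with an adjusted p under 0.05. In lacrimal glands 1236 genes (11.8%) rose and 464 (4.43%) fell. Among cell cycle genes 17 of 22 differed. Their lacrimal median was 0.67, with 8 higher and 1 lower, where the salivary median was -1.33. Mki67 averaged 6.53 and then 7.35 in lacrimal glands, and its change differed by -3.59 ± 0.48 (adjusted p = 3.84e-08). For Ube2c the difference was -4.71 ± 0.52 (adjusted p = 2.55e-10).

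Matrix genes also fell in lacrimal glands, 8 of 22 against 1 that rose, and the change differed between the glands for 8. Col1a1 averaged 8.52 and then 5.88 there, and its change differed by -0.11 ± 0.44 (adjusted p = 0.863). Eln fell further in salivary glands, by a difference of -1.51 ± 0.31 (adjusted p = 0.000122). Of the clock genes 5 rose and 1 fell in lacrimal glands, and the change of 10 differed. Dbp averaged 6.02 and then 10.22 in lacrimal glands, a difference in change of 1.81 ± 0.30 (adjusted p = 3.25e-06), and Arntl averaged 6.05 and then 3.91 (-2.29 ± 0.35, adjusted p = 5.71e-07). For Nfil3 (-0.28 ± 0.52) and Bhlhe40 (-0.39 ± 0.28) no difference was called.

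**Figure D5:**
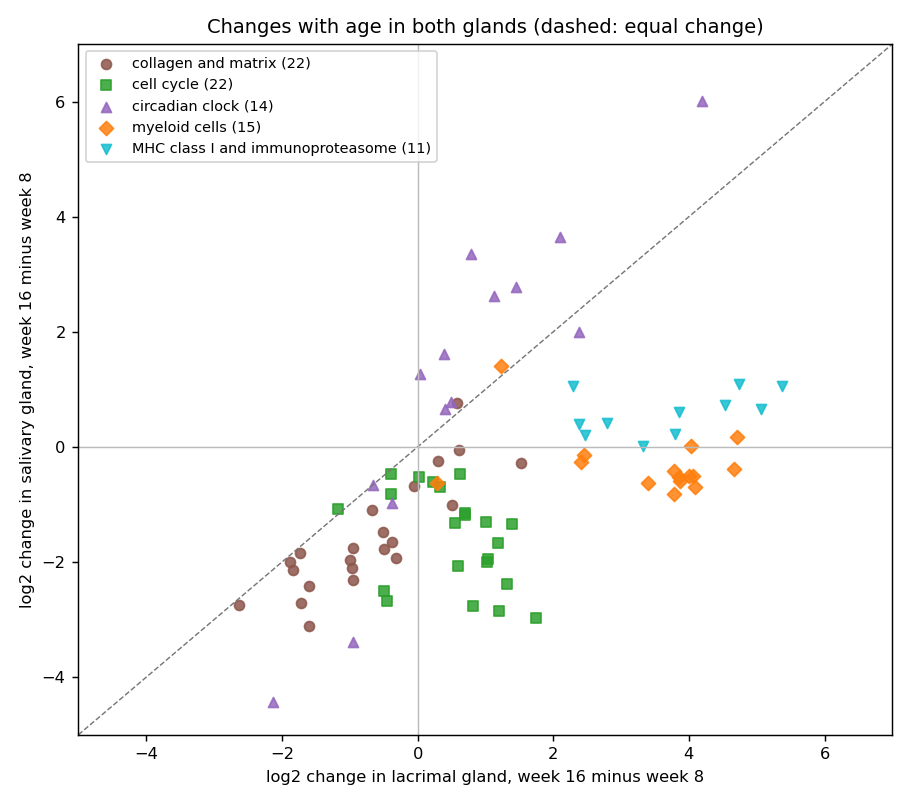
Log2 change from week 8 to week 16 in lacrimal glands (x axis) against that in salivary glands (y axis) for members of 5 gene lists, 1 marker per gene with shape and colour by list. The dashed line marks equal change. Most cell cycle genes lie below 0 in salivary and above 0 in lacrimal glands, most myeloid and all MHC class I genes lie below the line, and Dbp, Per3 and Nr1d2 rise while Arntl falls in both glands.

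Immune lists separated the glands. All 18 B cell genes tested over both glands rose in lacrimal glands, and the change of all 18 differed. Genes entered this test if they passed the floor in either gland, and only 2 B cell genes did so in salivary glands. Most of the 18 thus entered through the lacrimal arrays where they were high, so this count was largely set by the filter. Cd79a averaged 3.50 and then 9.34 in lacrimal glands. All 11 class I genes rose in lacrimal glands and all 11 differed, as did 15 of 18 myeloid genes. Of these 18 myeloid genes 15 were tested in salivary glands, and the others entered through the lacrimal arrays. Cxcl13 averaged 4.62 and then 10.87 in lacrimal glands, and its change differed by -7.53 ± 0.76 (adjusted p = 2.19e-11). For Igha, by contrast, lacrimal means were 9.19 and 15.27, and the difference of 1.17 ± 0.99 was not called (adjusted p = 0.356). For Jchain it was -1.55 ± 0.83 (adjusted p = 0.129), with single week 8 lacrimal arrays between 3.59 and 7.39. The salivary rises of Igha and Jchain were larger without week 8 replicate 1, as given above. Their gland differences were not recomputed without that array, so equal change in both glands was not shown. Other immunoglobulin and plasma cell genes did differ, namely 5 of the 8 plasma cell genes tested over both glands and the light chains Igkv9-120 (-3.06) and Iglv1 (-2.73). Of the 8 plasma cell genes only 5 were tested in salivary glands. The others entered through the lacrimal arrays, so the filter bears on this count too.

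Further differences lay in single genes. Arc lay between 2.39 and 2.44 in all lacrimal arrays of both ages (difference 4.11 ± 0.21), and Upp2 between 3.51 and 3.82 (4.74 ± 0.36). Cyp2b10 was high in lacrimal glands at both ages, 11.07 and 10.80 (4.27 ± 0.31). Acsm1 rose in salivary glands and fell in lacrimal glands, from 7.0 to 5.09, and Fkbp5 did the same, from 10.33 to 9.21. The 5 smooth muscle genes called in salivary glands all differed, for example Myh11 by 1.92 ± 0.18, with lacrimal means of 7.15 and 6.93. Evl (-5.63), Fscn1 (-5.89) and Cyba (-5.42), genes of the actin cytoskeleton and of the phagocyte oxidase, fell in salivary glands and rose in lacrimal glands, but the salivary fall of Cyba (-1.06) was not called without week 8 replicate 4 (-0.97).

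Week 12 differed from week 8 by about as many probe sets as week 16 did. Against week 8, 7.21% of 19205 probe sets were called at week 12, 7.31% at week 14 and 7.24% at week 16, all against the same week 8 arrays. Between week 12 and week 16 only 2 probe sets (0.0104%) were called by limma, both higher. Of these 2, one is a dimmer probe set of Pdia6, a folding enzyme of the endoplasmic reticulum, with a mean level under the floor at week 12 (2.73) and near it at week 16 (4.03), and the other has no gene symbol. At an unadjusted p below 0.05, 26 changed by 2-fold or more. The median change from week 12 to week 16 was 0.13 for clock genes, -0.12 for cell cycle genes, -0.03 for matrix genes and 0.07 for granular duct genes, and no gene of these lists was called. At week 12 cell cycle genes had already fallen for 15 of 22 and matrix genes for 15 of 22, and 6 of 10 granular duct genes had risen. MHC class II genes had no call at week 12 or week 14 (medians 0.59 and 0.67 against week 8). In mice given MOPC-21, which share no array with the comparison of week 16 and week 8, 46 probe sets (0.24%) were called between week 12 and week 16. Replicate 2 of the week 12 MOPC-21 group stood apart on the second principal component (119.8 in absolute value, against at most 28.9 in the other salivary arrays). The 46 calls were not recounted without it.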

How the data were processed

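RNA of whole glands was amplified (NuGEN Ovation), labelled and hybridised to Affymetrix mouse genome arrays. The authors deposited log2 values made by GCRMA over the series (version not given in the sources used here), which were used as deposited. No scanner files were used, so detection and saturation of single probes are unknown, and the number of arrays limits the precision.

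Of 45101 probe sets, 34958 carried 1 gene symbol, 932 several and 9211 none, and only the first kind was named. Probe sets above 4 in at least 2 of the 8 arrays (19205) were tested with limma 3.58.1 (R 4.3.3) by fitting 1 mean per group to all 30 salivary arrays (8 groups), an intensity trend and Benjamini-Hochberg adjustment. Changes in the glands were compared in a joint fit over 61 arrays. The pipeline was tested on simulated data.

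Genes were named by a rule: the 15 called genes with the largest rise and the 15 with the largest fall, if their arrays did not overlap, up to 4 called members of each of 31 lists, the 2 highest members of a list without calls, 8 genes fixed by name (6 of them with a probe set of their own), and the 5 largest called differences between glands in each direction. The comparison and the lists were chosen with earlier results of these data known. Lcn11, Adipoq and other list members given as values were added after their values were seen. Alternatives covered the filter, samples, scaling, test, call rule, gland makeup and single arrays.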

Additional observations from a re-analysis of the deposited data

Results flagged for a closer look

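Single arrays lay far from the other 3 of their group in 15 of 166 groups of named genes, where about 1 in 20 would by chance. At week 8, replicate 1 stood apart for Igkv9-120 (5.18), Iglv1 (4.81) and H2-Ab1 (7.83), all higher than the others, and for Lpl (9.55), which was lower. Replicate 2 of week 8 was low for Amy1 (4.58) and high for Aqp5 (11.57), and replicate 4 was low for Nlrc5 (4.92). At week 16, replicate 4 was high for Amy1 (14.19), Bpifa2 (14.02) and Fabp4 (9.85) and stood apart for Ndufa1 (12.28) and Pf4 (6.0). Replicate 3 of week 16 stood apart for Cnn1 (7.58) and Ebf1 (4.04), and replicate 2 for Cd14 (8.42). Groups that lay wholly at or under the floor of 4 were not examined.

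The change from week 8 to week 16 differed between salivary and lacrimal glands for 30 of 36 named genes tested for it. These genes had been named for the largest salivary changes or for a called gland difference itself. The count was therefore largely fixed by that choice, and over all genes the share was 20.3%. Salivary minus lacrimal change was positive for Upp2 (4.74), Acsm1 (4.38), Cyp2b10 (4.27), Sult1e1 (4.16), Arc (4.11), Smr2 (4.08), Capn3 (4.07), Pcp4l1 (3.77), Snhg11 (3.41), Dbp (1.81) and Per3 (1.55). It was negative for the chemokine Cxcl13 (-7.53), for Scgb1b2 (-7.51) and Obp1a (-5.07), for Fscn1 (-5.89), Evl (-5.63) and Cyba (-5.42), for the cell cycle gene Ube2c (-4.71), for Agt (-3.75), Sphk1 (-3.49) and Peg3 (-3.18), and for the light chains Igkv9-120 (-3.06) and Iglv1 (-2.73). The clock activators Npas2 (-2.45) and Arntl (-2.29), the lipase gene Lpl (-1.85), and Eln (-1.51), Igf1 (-1.44), Col5a3 (-1.43) and Adamts12 (-1.15) also fell further in salivary glands. Without week 8 replicate 1 the salivary falls of Scgb1b2 and Obp1a were smaller and the rises of Igkv9-120 and Iglv1 larger. Their gland differences were not recomputed without that array.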

How the results depend on the processing

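Of 95 named genes 89 were tested and 77 called, and 14 of these lost the call under at least 1 alternative, leaving aside the unfiltered table, the posterior rule and the covariates. The posterior rule (probability of no change under 0.05) follows the selection in the study's methods. It called 1001 probe sets, against 1391 in the main analysis. Cell cycle genes called lower went from 16 to 12 and clock genes called higher from 8 to 7. Matrix genes called lower stayed at 17 and granular duct genes called higher at 6. By this rule 14 named genes lost the call, among them Amy1, Fos, Fdps, Oasl2 and Fabp4, which kept it under the alternatives counted above. Over the 27 alternatives run for the named genes 2287 values kept direction and call, 76 lost a call, 12 gained one and 14 changed sign. With a filter at a level of 6, 911 probe sets were called (338 lower) and 9 cell cycle genes fell, since fewer were tested. Without a minimum fold 6612 were called (2829 higher, 3783 lower). Leaving out 1 array at a time gave 1302 to 1549 calls, 743 to 939 higher and 518 to 639 lower, with 14 to 16 cell cycle genes and 16 to 17 matrix genes lower, 8 clock genes higher each time, 5 to 7 granular duct genes higher, and 3925 to 4417 gland differences. Signs changed only for genes near 0 and for Bpifa2. Ndufa1 (close to 0 with all arrays) gave 0.011 with array weights, -0.030 to 0.047 when 1 array was left out, 0.033 with equal medians, 0.020 without arrays with Amy1 above 8, 0.029 with parotid products and 0.018 with lymphocyte markers as a covariate, and 0.021 without both arrays that held other gland transcripts. Mbp (0.05) gave -0.010 to 0.106 when 1 array was left out, -0.0011 without both arrays, -0.054 with the lacrimal probe sets as a covariate and -0.19 with its most variable probe set. Bpifa2 gave -0.17 without both arrays. The settings without both arrays, with the lacrimal covariate and without a MOPC-21 array that stood apart were chosen after seeing the data.

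Same-numbered arrays of the 2 weeks did not deviate together (correlations 0.046, 0.021, -0.034 and -0.004), so the numbers were not taken as pairs. With the replicate block 1394 probe sets were called (835 higher, 559 lower), and the only named gene to lose its call was Gp2 (adjusted p = 0.0506).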
